A study of Mus musculus with 10 samples.

Results

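Orphan and adhesion G protein-coupled receptors were compared between macrophages of lung metastases and macrophages of normal lungs. The genes were taken by symbol, as every gene in the count files whose name is Gpr followed by a number and at most 1 letter, or Adgr followed by a letter and a digit. The rule found 99 of 24538 genes, 73 with a Gpr symbol and 26 with an Adgr symbol. Expression played no part in the choice. Lung metastases were seeded by tail vein injection of E0771-LG cells, a mouse mammary tumor line, into C57BL6/J female mice at 6 to 8 weeks of age. Metastasis-associated macrophages (MAMs) were sorted as CD11B+CD11C- cells from dissected metastases pooled from 2 to 4 mice. Resident alveolar macrophages (RAMs) were sorted from normal lungs as CD11C+CD11B- cells. Both gates also asked for CD45+ and F4/80+ cells of high forward scatter (FSC hi) that were MRC1+ and LY6C-. All mice were wild type and 8 to 10 weeks old, and transcription inhibitors were present during tissue digestion in both groups. There were 5 libraries per group. Sorting gate, tissue state and macrophage origin differed together between the groups, so their contributions cannot be told apart. The labels do not state whether the samples of a group came from separate experiments, so the p-values measure the spread between these samples.

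G protein-coupled receptors carry signals across the membrane to heterotrimeric G proteins, which raise or lower second messengers such as cyclic AMP. Adhesion receptors, the Adgr genes, add a long extracellular region that binds matrix or neighbouring cells and that most of them cut themselves, which leaves a tethered agonist. The Gpr symbols began as names for receptors without a known ligand. Ligands have since been assigned to several of them, among them protons, lysophospholipids, oxysterols and fatty acids. Some Gpr symbols belong to multi-pass proteins of the Golgi or lysosome that are not classical receptors. In macrophages such receptors act in migration, in the sensing of acid and lipids, and in contact with other cells. F4/80 itself, the sorting marker, is the product of an adhesion receptor gene, Adgre1.

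Counts on genes ranged from 50746305 to 87523247 per library, and no library repeated another. The sorted populations carried the markers of their labels. The summed level of 7 monocyte-derived macrophage genes, Itgam the highest of them, was 9658 to 11334 counts scaled to library size (CPM) in MAMs and 105 to 124 CPM in RAMs. The summed level of 8 alveolar macrophage genes, led by Chil3, was 398 to 788 CPM in MAMs and 10569 to 13216 CPM in RAMs. Marco, on the same list, overlapped between the groups, at 89.7 to 389 CPM in MAMs and 284 to 531 CPM in RAMs. Itgam encodes CD11B, and Itgax, in the alveolar list, CD11C. Both proteins were used in the gates, so these genes add no support for the labels. Itgam averaged 6270.2 CPM in MAMs and 64.3 CPM in RAMs, and Itgax 171 and 991 CPM. General macrophage genes, led by Lyz2, summed to 21142 to 28254 CPM in MAMs and 28203 to 35766 CPM in RAMs. This sum rested on Lyz2, with means of 20655 CPM in MAMs and 29172 CPM in RAMs. Csf1r (1132 against 280.0 CPM), Cd14, Fcgr1, Cd68 and Spi1 had higher means in MAMs. Mertk had a lower one, at 267 against 795 CPM. Markers of other cells were also found. Endothelial genes summed to 21.7 to 93.1 CPM in MAMs, with Cldn5 at 0 counts, and 1.93 to 13.6 CPM in RAMs. Fibroblast genes summed to 3.49 to 40.6 CPM in MAMs and 0.270 to 5.99 CPM in RAMs. Neutrophil genes reached 18.0 CPM in MAMs and 3.98 CPM in RAMs, where Ly6g was at 0, and B cell genes 23.1 and 16.7 CPM. T and NK cell genes reached 5.90 and 4.37 CPM, and eosinophil and mast cell genes 2.55 and 0.563 CPM, with Prg2, Mcpt4 and Fcer1a at 0 in both. Dendritic cell genes were at 3.44 to 11.0 CPM in MAMs and 17.2 to 26.0 CPM in RAMs. In RAMs this sum rested on Clec9a, with means of 1.01 CPM in MAMs and 19.4 CPM in RAMs. Zbtb46, Xcr1 and Ccr7 went the other way, at 2.31, 1.29 and 1.94 CPM in MAMs and 1.72, 0.455 and 0.321 CPM in RAMs. Flt3 was at 0.00362 and 0.0331 CPM. Lung epithelial genes were at 1.59 to 13.8 and 25.1 to 45.4 CPM, and general epithelial genes at 9.84 to 23.6 and 589 to 702 CPM. In RAMs the last sum rested on Krt19 (mean of 436 CPM), Cdh1 (131 CPM) and Epcam (76.8 CPM). Except where a value is set beside a receptor below, the part of these cells in the receptor levels was not tested.

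Most of the receptor genes were low or not detected in both kinds of macrophage. Of the 99 genes, 37 reached a mean of 1 FPKM in at least 1 group and were tested. FPKM are fragments scaled to transcript length and to mapped fragments, as deposited, and allow levels of different genes to be compared. Of the 62 genes below this level, 13 had no count in any library and 51 stayed under 1 FPKM in every library. Adhesion receptors were tested in 7 of 26 cases and Gpr genes in 30 of 73. At the level of 1 FPKM, 25 of the receptor genes were present in both groups, 6 in MAMs alone and 6 in RAMs alone.

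A gene was called higher or lower when it changed more than 2-fold and its p, from the quasi-likelihood test of edgeR, was under 0.05 after Benjamini-Hochberg adjustment over all genes tested. Of the 37 receptor genes tested, 12 were higher and 9 lower in MAMs, and 16 were not called. Over all 11571 genes tested, 30.3% were called in either direction, 15.3% higher and 15.1% lower. The 12 genes that reached 1 FPKM in a single group passed the filter only through the group where they were high. Their calls, p-values and lack of overlap therefore add no support. Those reported here were Adgre4, Adgrg6, Gpr132, Gpr176, Gpr31b and Gpr85 for MAMs, and Adgrg1, Adgrl3, Gpr55, Gpr34 and Gpr33 for RAMs. Among the 25 genes present in both groups, 6 were called higher and 3 lower, where 22.3% of all such genes were called. The median log2 fold change of the 37 genes was 0.07, against -0.02 over all genes tested. In these bulk samples, fewer cells with a transcript and less transcript per cell cannot be told apart.

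**Figure D1:**
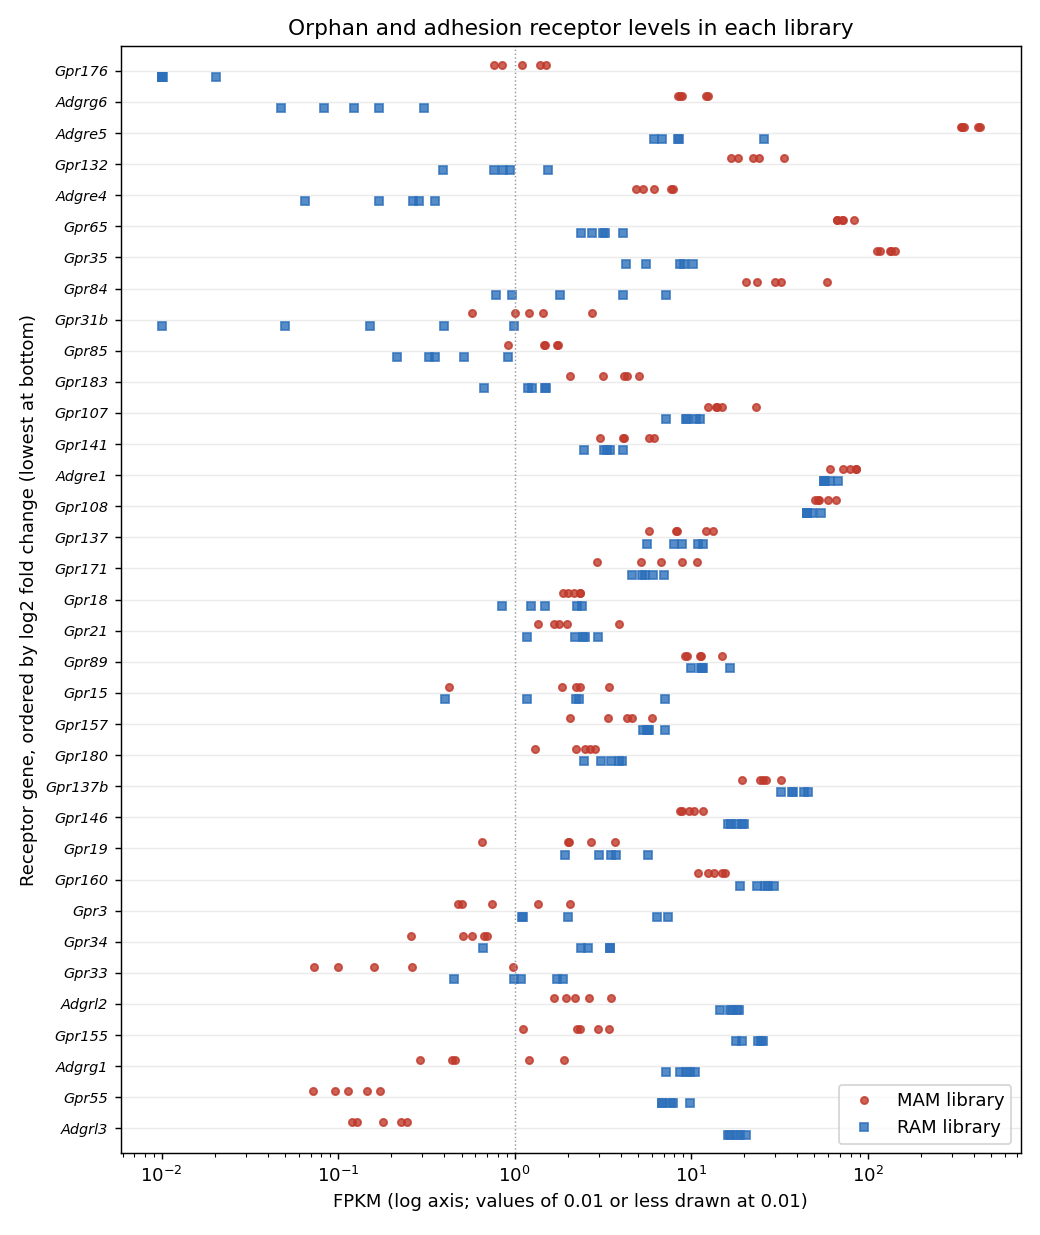
FPKM of 35 of the receptor genes tested in each of the 5 MAM libraries (red circles) and 5 RAM libraries (blue squares), on a log axis, with genes in the order of their log2 fold change and a dotted line at 1 FPKM. Adgre5 is the highest receptor in MAMs at 336 to 431 FPKM, while Adgrl3 lies at 16.2 to 20.4 FPKM in RAMs and at 0.246 FPKM or less in MAMs.

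The order of abundance differed between the groups. In MAMs the highest receptors by mean FPKM were Adgre5 (377), Gpr35 (129), Adgre1 (77.2), Gpr65 (72.4), Gpr108 (56.2) and Gpr84 (33.1). In RAMs they were Adgre1 (60.0), Gpr108 (47.7), Gpr137b (39.3), Gpr160 (25.1), Gpr155 (22.4), Gpr146 (18.2) and Adgrl3 (18.0). Adgre5 alone made up 40.7% of the summed FPKM of the 99 genes in MAMs. It ranked 179 among the 11571 tested genes by mean FPKM in MAMs and 5174 in RAMs.

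Among adhesion receptors the EGF-module genes Adgre5 and Adgre4 were higher in MAMs. Adgre5 encodes CD97, a leukocyte receptor that binds CD55 on other cells. Its 5 MAM libraries had 424, 431, 351, 342 and 336 FPKM, and the RAM libraries 8.59, 6.80, 6.17, 8.45 and 25.9 FPKM. Every MAM library lay far above every RAM library, and RAM replicate 5 stood above the other RAM libraries. Adgre5 rose by a log2 fold change of 5.09, or 34.1-fold (standard error 0.340 on the log2 scale, edgeR adjusted p = 5.3e-09). In RAM replicate 5 the monocyte-derived macrophage genes summed to 117 CPM, inside the range of the other RAM libraries. Itgam, whose product was a gate marker, was 66.1 CPM of this sum. Of the RAM libraries, this one was highest for Cx3cr1, at 2.02 CPM, and lowest for Ly6c2, at 0.0426 CPM. The part of other cells in its Adgre5 level was not tested. Without that library the log2 fold change was 5.60. Adgre5 shares exonic bases with Ddx39 on the opposite strand, whose log2 fold change was 0.61.

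Adgre4, a myeloid receptor also known as FIRE, had 7.89, 7.72, 6.17, 5.35 and 4.89 FPKM in MAMs. The RAM libraries had 0.352, 0.264, 0.171, 0.0649 and 0.286 FPKM, well under the lowest MAM library. MAMs over RAMs gave a log2 fold change of 4.80 (standard error 0.394, edgeR adjusted p = 5.8e-08). Adgre1 did not share this pattern. It had 61.4, 72.8, 86.1, 86.1 and 79.7 FPKM in MAMs and 61.2, 56.9, 67.7, 57.5 and 56.9 FPKM in RAMs, and the groups overlapped. The fit gave a log2 fold change of 0.37 (standard error 0.0976, edgeR adjusted p = 0.00438), under the 2-fold limit. Cells of both groups had been sorted for its product, and the part of the gate in its level was not tested.

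Adgrg6, an adhesion receptor best known from the myelination of peripheral nerve, was at 12.1, 12.4, 8.91, 8.61 and 8.42 FPKM in MAMs. In RAMs it was at 0.0826, 0.308, 0.170, 0.0472 and 0.123 FPKM, with no overlap. Its log2 fold change of 6.30 was the highest of the adhesion receptors tested (standard error 0.432, edgeR adjusted p = 7.1e-09).

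The latrophilins Adgrl3 and Adgrl2 went the other way. They bind teneurins and FLRT proteins on neighbouring cells and are known from the synapse. Adgrl3 had 16.6, 18.2, 20.4, 16.2 and 18.9 FPKM in RAMs and 0.120, 0.246, 0.128, 0.227 and 0.179 FPKM in MAMs. The 5 MAM libraries held 28 to 73 Adgrl3 counts each, against 5420 to 8504 in RAM libraries. The log2 fold change was -7.03, a 131-fold lower level (standard error 0.215, edgeR adjusted p = 7.5e-13). Adgrl2 had 17.1, 18.1, 18.6, 14.6 and 16.5 FPKM in RAMs and 1.67, 1.95, 2.64, 3.50 and 2.20 FPKM in MAMs, again without overlap. It fell by 2.90 on the log2 scale (standard error 0.199, edgeR adjusted p = 7.5e-09). The third latrophilin, Adgrl1, did not reach the level for testing, with means of 0.443 FPKM in MAMs and 0.178 FPKM in RAMs.

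Adgrg1, a receptor for type III collagen and transglutaminase 2, was also lower in MAMs. RAM libraries had 9.80, 9.33, 8.63, 7.20 and 10.5 FPKM, and MAM libraries 0.442, 0.289, 1.91, 1.20 and 0.459 FPKM. MAM replicates 3 and 4 were the highest of their group and still under every RAM library. On the log2 scale the difference was -3.49 (standard error 0.433, edgeR adjusted p = 5.5e-06). Its neighbour Adgrg3, 3475 bases away on chromosome 8, had most of its counts in MAMs. Adgrg3 is known from neutrophils, and the neutrophil genes S100a8 (log2 fold change 1.12) and S100a9 (3.47) were called higher in MAMs as well. The rest of the neutrophil list was under the level for testing. Ly6g, Retnlg and Camp were at 0.368, 0.0545 and 0.207 CPM in MAMs and 0, 0.00417 and 0.0477 CPM in RAMs. Ngp went the other way, at 0.0859 and 0.581 CPM. Their part in the Adgrg3 level was not tested. It had 17, 232, 130, 116 and 202 counts in MAMs and 6, 0, 1, 2 and 0 counts in RAMs. Its mean of 0.911 FPKM in MAMs was under the level for testing. In an edgeR fit without the filter it had a log2 fold change of 6.17 (adjusted p = 2.0e-04).

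Of the other 18 adhesion receptors under the limit, Adgra3 and Adgrd1 reached 1 FPKM in at least 1 library. Adgrd1 split the MAM libraries, with 361 and 343 counts in replicates 1 and 3 and 1 count in each of the other 3. These were also the MAM libraries with the highest sum of fibroblast genes, at 40.6 and 34.8 CPM, against 3.49 to 11.1 CPM in the others. Whether the values are linked was not tested. Adgrf5, known from the surfactant-handling cells of the alveolar epithelium, was at 0.152 FPKM in MAMs and 0.500 FPKM in RAMs.

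**Figure D2:**
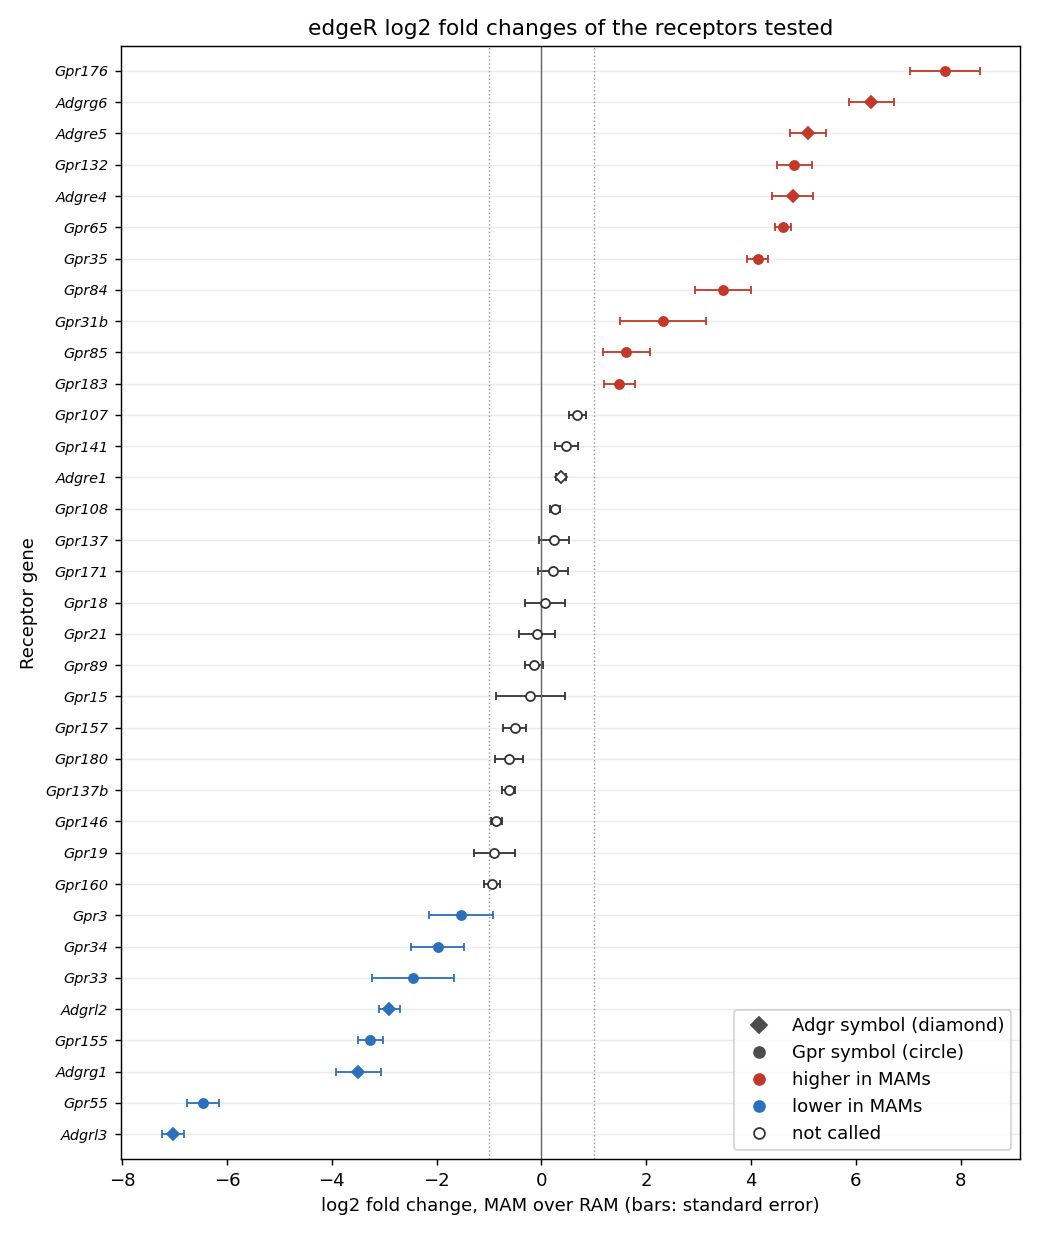
Log2 fold change of MAMs over RAMs for 35 of the receptor genes tested (edgeR; bars, standard error), with diamonds for adhesion receptors, circles for Gpr genes, filled symbols for called genes and dotted lines at a 2-fold change. Values run from -7.03 for Adgrl3 to 7.70 for Gpr176.

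Receptors for protons came next. Gpr65 couples extracellular acidity to G proteins, and Gpr132 is usually grouped with it. Both were higher in MAMs with no overlap between the groups, where 44.9% of all genes tested showed no overlap in CPM. Gpr132 passed the filter only through MAMs, so its call and its lack of overlap add no support. Gpr65 had 67.3, 67.3, 72.1, 83.6 and 71.7 FPKM in MAMs and 2.73, 3.17, 3.25, 4.13 and 2.37 FPKM in RAMs. Its log2 fold change was 4.61, or 24.4-fold (standard error 0.153, edgeR adjusted p = 1.8e-12). The spread within each group was small against this difference.

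Gpr132, which has also been linked to oxidized fatty acids, had 33.8, 18.5, 22.5, 16.9 and 24.2 FPKM in MAMs. RAM libraries had 0.939, 0.861, 0.764, 1.54 and 0.394 FPKM. The log2 fold change was 4.83 (standard error 0.340, edgeR adjusted p = 9.7e-09).

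Gpr4, a proton receptor too, is known from blood vessel endothelium. It stayed under the level for testing, with 0.0552, 0.0909, 0, 0.0126 and 0.0868 FPKM in MAMs and 0.416, 0.362, 1.22, 1.18 and 1.41 FPKM in RAMs. All RAM libraries were above all MAM libraries. In the edgeR fit without the filter its log2 fold change was -3.08 (adjusted p = 0.0121). The endothelial genes did not move as 1 group: Kdr, Pecam1 and Cdh5 were called higher in MAMs, while Cldn5 was at 0 in MAMs and 0.241 CPM in RAMs, and Tek at 0.439 and 0.752 CPM. Their part in the Gpr4 level was not tested.

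Receptors for lipids and metabolites were divided between the groups. Gpr35, which responds to kynurenic acid among other metabolites, had 143, 134, 117, 136 and 113 FPKM in MAMs and 5.52, 4.27, 9.09, 8.63 and 10.2 FPKM in RAMs. The groups were far apart, and Gpr35 ranked 544 by mean FPKM among genes tested in MAMs. The fitted log2 fold change was 4.13, or 17.4-fold (standard error 0.202, edgeR adjusted p = 1.4e-10). Gpr84, a receptor for medium-chain fatty acids on activated myeloid cells, had 59.2, 32.1, 23.6, 20.5 and 29.8 FPKM in MAMs. In RAMs it had 0.966, 0.783, 1.81, 7.24 and 4.09 FPKM, with replicates 4 and 5 above the rest. The fit gave a log2 fold change of 3.47 (standard error 0.529, edgeR adjusted p = 4.7e-05).

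Gpr183, the oxysterol receptor that guides lymphocytes and dendritic cells, was low but higher in MAMs, at 2.05 to 5.08 FPKM against 0.668 to 1.50 FPKM. Its log2 fold change was 1.49 (standard error 0.303, edgeR adjusted p = 6.5e-04). Gpr183 and Gpr18 lie 36770 bases apart on chromosome 14, both inside introns of Ubac2 on the opposite strand. Gpr18 had means of 2.15 FPKM in MAMs and 1.65 FPKM in RAMs, and its log2 fold change of 0.07 did not pass the test (edgeR adjusted p = 0.899). Ubac2 itself had a log2 fold change of 0.61 and overlapped between the groups. Intronic reads of the host could not be separated from those of the nested genes without strand. Gpr31b, a receptor assigned to a hydroxylated arachidonic acid product, was scarce, at 57 to 108 counts in MAMs and 1 to 42 counts in RAMs. The fit gave a log2 fold change of 2.32 (standard error 0.815, edgeR adjusted p = 0.0249). The call was lost without MAM replicate 3 (2.08) and without RAM replicate 5 (2.24).

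The lysophospholipid receptors Gpr55 and Gpr34 were lower in MAMs. Gpr55, which responds to lysophosphatidylinositol, had 7.90, 6.82, 7.69, 6.86 and 9.86 FPKM in RAMs and 0.146, 0.0961, 0.114, 0.172 and 0.0716 FPKM in MAMs. That corresponded to 919 to 1273 counts in RAM libraries and 9 to 21 counts in MAM libraries. The log2 fold change was -6.45, an 87.4-fold lower level (standard error 0.303, edgeR adjusted p = 8.9e-11). Gpr34, a lysophosphatidylserine receptor, had 2.39, 2.59, 3.45, 0.658 and 3.47 FPKM in RAMs and 0.258, 0.575, 0.674, 0.694 and 0.508 FPKM in MAMs. RAM replicate 4 fell within the MAM range, and the groups overlapped. MAMs over RAMs gave a log2 fold change of -1.98 (standard error 0.500, edgeR adjusted p = 0.00334). Gpr34 lies inside an intron of Cask, whose log2 fold change was -0.08.

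**Figure D3:**
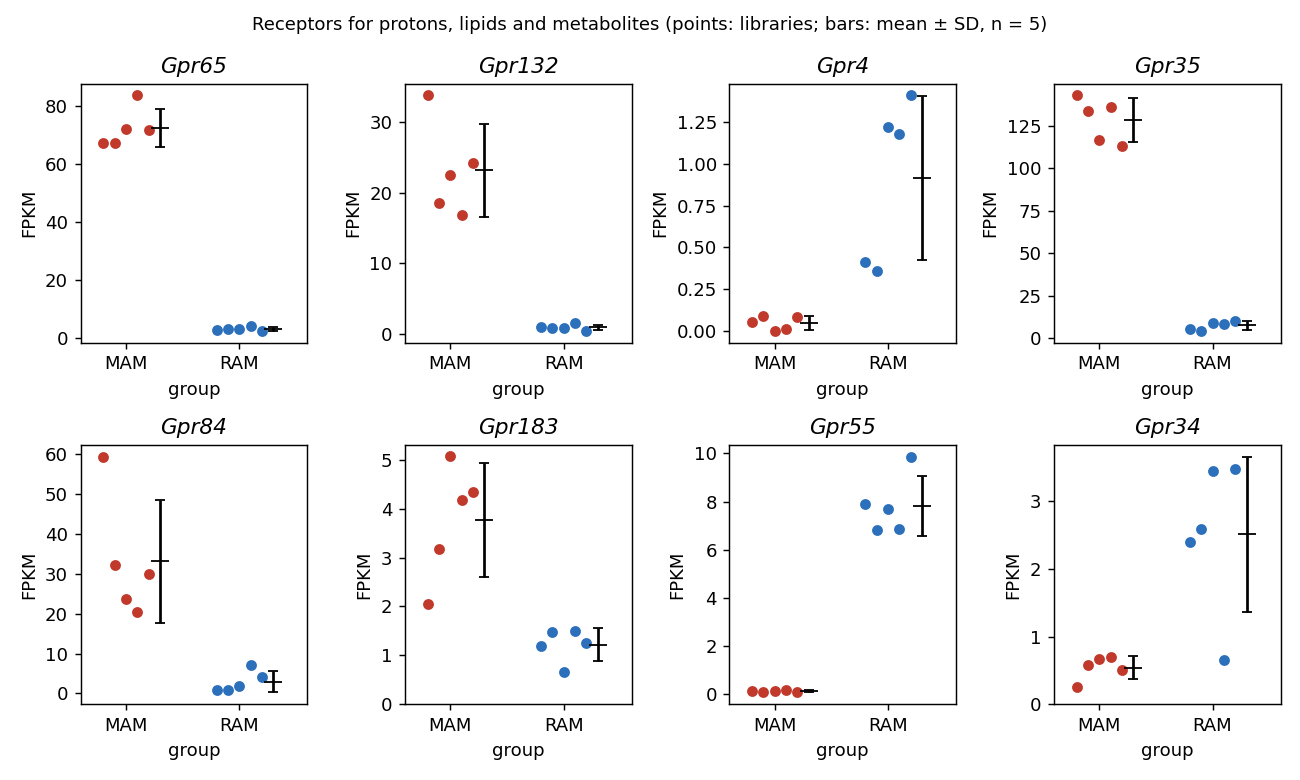
FPKM of receptors grouped as proton receptors (Gpr65, Gpr132, Gpr4) and of receptors for lipids and metabolites (Gpr35, Gpr84, Gpr183, Gpr55, Gpr34) in each library. Mean ± SD (n = 5) is drawn beside the points, with a separate linear axis per gene. Only Gpr34 overlaps between the groups among these genes, through RAM replicate 4 at 0.658 FPKM.

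Gpr symbols also name proteins that are not classical receptors. Of the 7 tested, Gpr155 was called lower in MAMs and the other 6 were not called, a share of 14.3% against 30.3% of all genes tested. All 7 reached 1 FPKM in both groups, where 22.3% of all such genes were called. With 7 genes, no difference can be read from these shares. Gpr155 encodes a lysosomal membrane protein that senses cholesterol. It had 24.0, 25.0, 25.5, 18.0 and 19.5 FPKM in RAMs and 2.98, 3.43, 2.34, 1.12 and 2.26 FPKM in MAMs, well apart. The log2 fold change was -3.26 (standard error 0.246, edgeR adjusted p = 2.2e-08). Gpr137b, another lysosomal protein, had 19.5, 25.4, 32.4, 24.5 and 26.6 FPKM in MAMs and 37.7, 32.1, 37.1, 43.7 and 46.1 FPKM in RAMs. MAM replicate 3 reached the lowest RAM library in FPKM. Its log2 fold change was -0.62 (edgeR adjusted p = 5.2e-04), and a similar pseudogene, Gpr137b-ps, could share its reads.

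Gpr108 and Gpr107 encode related proteins of the secretory pathway. Gpr108 had 52.7, 52.1, 50.2, 65.9 and 59.7 FPKM in MAMs and 54.1, 45.6, 45.1, 45.4 and 48.3 FPKM in RAMs, with overlap. On the log2 scale the difference was 0.26 (edgeR adjusted p = 0.0386). Gpr107 had 23.3, 14.0, 13.8, 14.9 and 12.4 FPKM in MAMs and 11.2, 9.43, 7.20, 10.6 and 9.35 FPKM in RAMs. MAM replicate 1 was the highest and the groups did not overlap. Gpr107 had a log2 fold change of 0.69 (edgeR adjusted p = 0.00187). Gpr89, part of a Golgi anion channel, had 9.51, 9.25, 11.4, 11.2 and 15.0 FPKM in MAMs and 11.5, 10.0, 11.6, 11.4 and 16.5 FPKM in RAMs. Its groups overlapped, and the log2 fold change of -0.14 did not pass the test (edgeR adjusted p = 0.517).

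Among the remaining Gpr genes, Gpr160 and Gpr146 were the most abundant, and both lack a settled ligand. Gpr160 had 14.9, 15.6, 10.9, 13.4 and 12.5 FPKM in MAMs and 23.5, 27.2, 26.2, 18.8 and 29.6 FPKM in RAMs. Gpr146 had 8.66, 11.6, 8.84, 10.4 and 9.73 FPKM in MAMs and 19.4, 16.9, 20.0, 18.3 and 16.2 FPKM in RAMs. Each was lower in every MAM library than in any RAM library. Their log2 fold changes of -0.94 (standard error 0.147, edgeR adjusted p = 6.0e-05) and -0.86 (standard error 0.107, edgeR adjusted p = 5.4e-06) were under the 2-fold limit. Under upper-quartile scaling, which lowered the median log2 fold change of all genes by 0.16, both passed it, at -1.10 and -1.03.

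Gpr176, a receptor of the circadian pacemaker of the brain, had 177 to 285 counts in MAMs and at most 2 counts in RAMs. Its level in MAMs was 0.763 to 1.50 FPKM and its fitted log2 fold change 7.70 (standard error 0.664, edgeR adjusted p = 1.0e-07). With so few RAM counts this size depends on the fit, and it was 1.06 on log2(FPKM + 1).

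Gpr85, a conserved receptor of the brain, was at 0.912 to 1.76 FPKM in MAMs and 0.215 to 0.912 FPKM in RAMs, with a log2 fold change of 1.62 (edgeR adjusted p = 0.00612). Its groups overlapped in CPM, with MAM replicate 3 at 3.33 and RAM replicate 3 at 3.60. Gpr3, which raises cyclic AMP without a ligand, had 2.00, 7.38, 6.37, 1.10 and 1.11 FPKM in RAMs and 0.742, 0.478, 1.36, 0.501 and 2.07 FPKM in MAMs. RAM replicates 2 and 3 carried the difference, and the groups overlapped. The log2 fold change was -1.53 (standard error 0.606, edgeR adjusted p = 0.0433). The call was lost without any of MAM replicates 1, 2, 3 and 4 or RAM replicates 2 and 3, at -1.02 without RAM replicate 2, and with the replicate number as a block (-1.32). Gpr33, related to chemoattractant receptors, was at 0.0732 to 0.983 FPKM in MAMs and 0.452 to 1.88 FPKM in RAMs. The groups overlapped, and the log2 fold change was -2.44 (edgeR adjusted p = 0.0152), or -3.65 without MAM replicate 3.

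Another 8 genes did not pass the test, with adjusted p in the edgeR test from 0.0629 for Gpr180 to 0.864 for Gpr21. They were Gpr180 (-0.61), Gpr19 (-0.90), Gpr157 (-0.51), Gpr15 (-0.21), Gpr21 (-0.08), Gpr171 (0.22), Gpr137 (0.24) and Gpr141 (0.48), with log2 fold changes in parentheses. Gpr15, known for the homing of T cells to the gut, ran from 0.405 to 7.11 FPKM among RAMs alone. Gpr21 shares exonic bases with Rabgap1 on the same strand, and Gpr171 lies inside an intron of Med12l, so reads of those genes may be among theirs.

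Without the filter on low levels, 49 of the 62 genes that fell under it could be fitted, and 9 of them were called by edgeR, 3 higher and 6 lower in MAMs. In that fit 25.9% of all genes were called. Besides Adgrg3, the higher genes were Adgrg7 and Gpr149, neither of which had a count in any RAM library. Adgrg7 had 6 to 77 counts in MAM libraries and Gpr149 4 to 63. The lower genes were Gpr4, Adgrf3, Adgrf5, Gpr152, Gpr17 and Gpr45. Gpr17 rested on RAM replicate 2, which held 165 counts, while the remaining RAM libraries held 0 to 11. Of Gpr genes not called in that fit, Gpr52, Gpr62, Gpr82, Gpr151 and Gpr162 reached 1 FPKM in at least 1 library.

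The called genes were compared for features that the symbol rule did not use. In the GENCODE annotation of GRCm38, 18 of the 37 genes tested had a single coding exon, among them 7 of the 12 higher genes and 4 of the 9 lower ones. All 7 tested adhesion receptors had 13 or more coding exons. Gpr65 (ENSMUSG00000021886.7) lies on chromosome 12 from 98268635 to 98276644, and Adgrl3 (ENSMUSG00000037605.16) on chromosome 5 from 81020138 to 81825133, both on the plus strand. Their exons overlap antisense transcripts, Gm47566 and Gm16054. Of the 37 genes tested, 17 shared exonic bases with another annotated gene. Among these were Gpr55 with 4933407L21Rik, Gpr3 with Cd164l2, Gpr15 with Cpox, Gpr137 with Bad, and Gpr89 with Gja5 and Pdzk1. These partners are protein-coding and on the opposite strand, and their part in the receptor counts was not tested.

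The 250 bases before the RefSeq start (GRCm38.p6) are shown for 2 called genes in each direction. They are the most abundant of the reported genes whose window, at the first listed start, lay outside the GENCODE model of the gene and shared no base with an annotated exon. Of 10 higher and 7 lower genes with a RefSeq entry, 4 and 3 had such a window, and the windows of the others overlapped their own GENCODE gene. The bases just after the start were found in a GENCODE transcript for 3 of the 4 genes shown. The sequences show how far the upstream regions differ in base composition. They read 5′ to 3′ on the strand of the gene, and capitals mark a match to GAGGAA, the core of sites for the macrophage factor PU.1, on either strand.
Gpr65 (chr12:98268385-98268634, plus strand): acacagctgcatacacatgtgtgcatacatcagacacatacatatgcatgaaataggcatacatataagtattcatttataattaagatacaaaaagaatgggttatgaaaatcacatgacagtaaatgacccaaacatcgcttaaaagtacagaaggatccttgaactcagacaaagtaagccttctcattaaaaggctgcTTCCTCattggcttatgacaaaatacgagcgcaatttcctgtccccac
Adgre4 (chr17:55749734-55749983, plus strand): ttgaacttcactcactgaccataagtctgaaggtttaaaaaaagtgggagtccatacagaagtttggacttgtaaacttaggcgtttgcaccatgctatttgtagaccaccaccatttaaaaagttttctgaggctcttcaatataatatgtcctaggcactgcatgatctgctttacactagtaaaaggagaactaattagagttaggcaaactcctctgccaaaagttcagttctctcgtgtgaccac
Gpr55 (chr1:85961056-85961305, minus strand): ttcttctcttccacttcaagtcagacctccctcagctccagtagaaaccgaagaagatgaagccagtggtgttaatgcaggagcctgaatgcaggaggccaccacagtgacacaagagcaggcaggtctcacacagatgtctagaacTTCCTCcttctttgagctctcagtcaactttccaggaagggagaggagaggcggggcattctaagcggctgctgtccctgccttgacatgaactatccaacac
Gpr3 (chr4:133212537-133212786, minus strand): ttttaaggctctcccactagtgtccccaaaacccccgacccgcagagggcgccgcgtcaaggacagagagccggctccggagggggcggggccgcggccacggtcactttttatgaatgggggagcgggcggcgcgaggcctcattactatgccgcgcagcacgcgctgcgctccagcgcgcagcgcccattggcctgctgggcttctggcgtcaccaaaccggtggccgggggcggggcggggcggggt
The windows of Gpr65 and Adgre4, higher in MAMs, held 3 and 2 CpG dinucleotides. Those of Gpr55 and Gpr3, lower in MAMs, held 3 and 29. Over all first listed windows the median CpG count was 2.5 in the 10 higher and 4 in the 7 lower genes, against 6 in all 27025 genes.

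GAGGAA, the AP-1 motif TGANTCA and a pair of GAAA repeats with 2 bases between them, as in interferon-stimulated response elements, were searched on both strands of the 250 bases at every listed start. GAGGAA was present in 3 of the 10 higher and 2 of the 7 lower genes, against 25.9% of all genes. TGANTCA was in 1 of each, against 7.82%. The paired GAAA repeats were in 0 higher genes and 1 lower gene, against 3.46%. A match is a description of these letters in these windows only.

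Genes that act downstream of the receptors were taken as a list of G protein subunits, receptor kinases, arrestins, RGS proteins and adenylyl cyclases. Of 64 such genes in the count files 37 were tested, with 9 called higher and 4 lower in MAMs, or 35.1% against 30.3% of all genes. Among the called genes, Rgs16, Rgs18, Gng11 and Adcy9 reached 1 FPKM in MAMs alone, and Gng3 and Adcy3 in RAMs alone. These passed the filter only through the group where they were high, so their calls add no support. Of 9 alpha subunits tested only Gna15 was called, lower in MAMs at 9.98 against 22.2 FPKM (log2 fold change -1.19, edgeR adjusted p = 8.9e-04). Gnai2 and Gnas, which lower and raise cyclic AMP, were at 459 and 375 FPKM in MAMs and 411 and 509 FPKM in RAMs. Gna13 had a log2 fold change of 0.99, just under the limit.

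RGS proteins, which shorten G protein signals, included 4 higher genes of 8 tested and 0 lower, where 15.3% and 15.1% of all genes tested were called. Rgs16 and Rgs18, with RAM means of 0.0400 and 0.0224 FPKM, passed the filter only through MAMs, so their calls add no support. Rgs18 (7.27) and Rgs16 (4.96) had the largest log2 fold changes of the list, and the more abundant Rgs1 rose by 2.61, from 29.9 to 180.1 FPKM (edgeR adjusted p = 9.2e-09). Of the gamma subunits, Gng11 rose by 3.74, Gng12 by 2.45 and Gng2 by 1.29, and the scarce Gng3 fell by 1.77. Adenylyl cyclases, which make cyclic AMP, differed in kind. Adcy3 was at 0.905 FPKM in MAMs and 32.5 FPKM in RAMs (log2 fold change -4.23, edgeR adjusted p = 7.8e-10), and Adcy9 at 4.42 and 0.758 FPKM (2.62, edgeR adjusted p = 1.5e-07). Adcy7 was at 33.8 and 42.6 FPKM. Among kinases and arrestins, Grk3 fell by 1.63 and Arrb1 rose by 2.12 on the log2 scale.

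**Figure D4:**
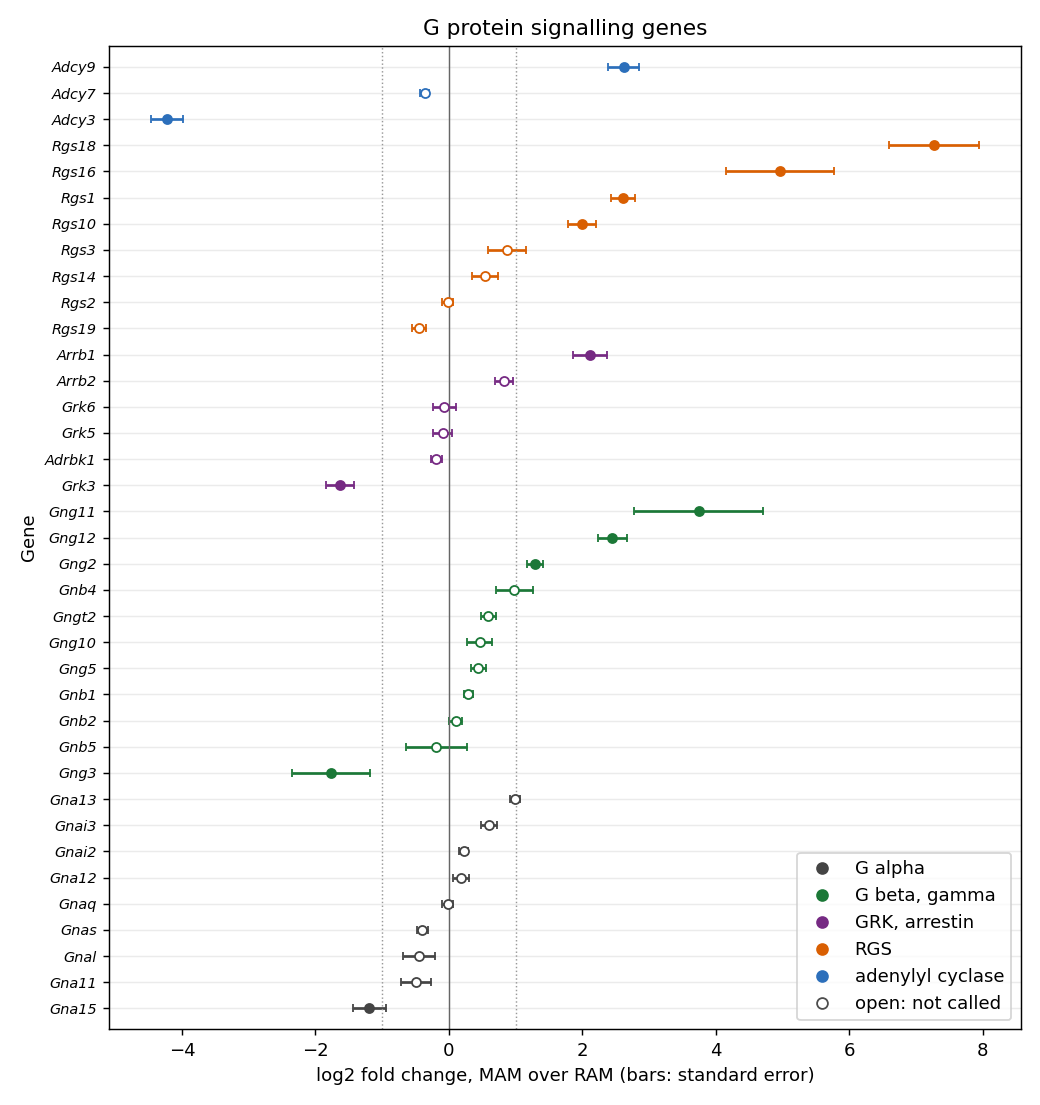
Log2 fold change of MAMs over RAMs for the 37 tested genes of G protein signalling (edgeR; bars, standard error), grouped by kind and ordered within each, with filled symbols for called genes and dotted lines at a 2-fold change. Of the 9 alpha subunits only Gna15 is called, while Rgs18 at 7.27 and Adcy3 at -4.23 lie at the ends.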

How the data were processed

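RNA from 5 MAM and 5 RAM samples was sequenced as paired reads from amplified libraries (Ovation RNA-Seq System V2). The authors aligned reads to GRCm38/mm10 with TopHat (2.0.13) and took uniquely mapped reads into htseq-count (HTSeq 0.6.1) with UCSC RefGene models, and the raw counts were deposited per library. They also deposited FPKM values from Cufflinks (2.2.1). The strand setting of the counting is not given in the sources used here, so reads of overlapping genes on opposite strands cannot be told apart.

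Libraries were grouped by their titles. Counts on lines naming no gene were left out. They made up 54.6% to 58.3% of all counts in MAM libraries and 62.2% to 64.1% in RAM libraries, without overlap, and the part of this difference in the results was not tested. Genes were kept if they had 1 count or more and a group mean of 1 FPKM or more, and these 11571 were fitted with edgeR 4.0.16 (R 4.3.3), TMM normalization and no covariates. Log2 fold changes are fitted on counts, CPM use the TMM-scaled totals, and "no overlap" is judged on CPM. At these depths a count of 0 allows up to 3 counts per library, for counting error only. The study used DESeq2, here an alternative (DESeq2 1.42.0), as were limma 3.58.1 on log2(FPKM + 1) and log2(FPKM + 0.1), other scalings and filters, a replicate block and each library left out. On simulated counts of 11571 genes, 200 of them altered, edgeR found 175 of the altered genes and made 5 false calls. The altered share was far below the 30.3% of genes called in the data. The simulation therefore gives no rate of false calls for a difference of that extent.

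Values of 2 of the tested genes are not reported here, though counts over all genes include them. The receptor genes and lists were chosen with earlier results of these data known. Values in every library are given for the 8 most abundant called genes in each direction, apart from those not reported, and for genes not called with at least 10 FPKM. Other tested genes are summarised, genes under the filter are named from 1 FPKM in a library, and the 3 largest changes in each direction are named from the signalling list. Adgrl1, the genes under the filter that were called without it, and the further signalling genes were named after their values were seen. The list of ligands in the observations was written after the receptors' values were seen. Same-numbered libraries showed no common deviation (correlations from -0.0366 to 0.0294).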

Additional observations from a re-analysis of the deposited data

Results flagged for a closer look

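In 74 sets of 5 libraries (37 genes in 2 groups), 7 had a library far from the others by Dixon's test at the 95% level, and chance alone flags about 1 in 20 sets. Levels here are CPM. Adgre5 was at 74.3 in RAM replicate 5, against 20.6 to 27.1 in the other RAM libraries. Gpr84 was at 73.5 in MAM replicate 1, against 25.5 to 38.4 in the other MAM libraries, and Gpr107 at 104 in the same library, against 55.2 to 66.3. MAM replicate 3 was high for Gpr31b, at 2.42 against 1.07 to 1.41, and for Gpr33, at 1.34 against 0.0750 to 0.330. It was low for Gpr180, at 3.71 against 7.71 to 8.63. Gpr21 was at 9.99 in MAM replicate 2, against 3.85 to 5.50.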

How the results depend on the processing

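Of the 21 receptor calls, RLE scaling, upper-quartile scaling, DESeq2 and edgeR's own filter kept all, log2(FPKM + 0.1) and the replicate block kept 20 and lost Gpr3, and log2(FPKM + 1) kept 17 and lost Gpr3, Gpr31b, Gpr33 and Gpr85. Without a filter 20 calls were kept, Gpr31b (2.34) was lost and the number of lower genes rose from 9 to 15. With a library left out, 11 to 13 genes were called higher and 8 to 10 lower. All genes called ran from 3381 to 3511, and signalling genes from 13 to 16. Sign changes were limited to 3 genes near 0. Gpr15 was at 0.06 with the replicate block and ran from -0.50 to 0.42 with a library left out, Gpr18 was at -0.10 under upper-quartile scaling and ran from -0.11 to 0.30, and Gpr21 ran from -0.34 to 0.05. Gpr19 was called under upper-quartile scaling (-1.07) and without MAM replicate 5 (-1.19) or RAM replicate 5 (-1.02), and Gpr160 without MAM replicate 2 (-1.01) or RAM replicate 4 (-1.01). The causes were not tested. The replicate block changed no other receptor call, and 3 of 10 libraries correlated best with their own number. Receptors with few counts had the least certain fold changes.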

Other observations

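Genes of binding partners were examined for the called receptors that have known partners. The latrophilin partners Flrt2, Flrt3 and Tenm4 were higher in MAMs, the group in which Adgrl2 and Adgrl3 were lower. Flrt2 had 17.9, 15.3, 13.7, 12.3 and 17.9 FPKM in MAMs and 0.113 to 0.391 FPKM in RAMs (log2 fold change 6.52, edgeR adjusted p = 8.1e-10). Tenm4, a teneurin, had 6.45, 6.98, 3.96, 3.62 and 4.89 FPKM in MAMs and 0.0400 to 0.0622 FPKM in RAMs (log2 fold change 7.15, edgeR adjusted p = 8.7e-12). Flrt3 was at 6.85 and 0.617 FPKM (3.41, edgeR adjusted p = 9.9e-05). Flrt1, Tenm1, Tenm2 and Tenm3 were under the level for testing.

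Of the oxysterol pathway that serves Gpr183, Ch25h, which starts ligand synthesis, was at 25.0 FPKM in MAMs and 13.3 FPKM in RAMs (log2 fold change 0.93, edgeR adjusted p = 0.00278). Hsd3b7, which degrades the ligand, was at 16.8 and 113 FPKM (-2.70, edgeR adjusted p = 2.6e-10), and Cyp7b1 was under the level for testing. Cd55, the partner of CD97, was at 1.14 and 0.557 FPKM and did not pass the test (1.13, edgeR adjusted p = 0.124). Tgm2, a partner of Adgrg1, was at 344 and 186 FPKM with a log2 fold change of 0.90 (edgeR adjusted p = 0.00101). Col4a1, a partner of Adgrg6, was at 1.17 and 0.0631 FPKM (4.48, edgeR adjusted p = 3.1e-05). Of the 17 partner genes, 8 were tested, with 4 called higher and 1 lower, where 15.3% and 15.1% of all genes tested were called. The 4 higher genes, Flrt2, Flrt3, Tenm4 and Col4a1, had means under 1 FPKM in RAMs. They passed the filter only through MAMs, so their calls add no support. Cd55b, Thy1, Col3a1 and Lama2 were under the level for testing.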
